A study of Mus musculus with 65 samples.

Results

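The sites described here are LDB1 peaks of untreated LDB1-AID cells that carried a YY1 peak but neither a CTCF nor a RAD21 peak. They were selected on the deposited peak sets of that subline: an LDB1 peak on chromosomes 1 to 19 or X was a member when it shared at least 1 bp with a YY1 peak and no base with a CTCF or RAD21 peak. Of 10729 LDB1 peaks, 1182 met the rule, which was 11% (Wilson 95% interval 10.4 to 11.6). They made up 54% (51.9 to 56.1) of the 2190 LDB1 peaks with YY1, and 15.2% (14.4 to 16) of the 7775 LDB1 peaks free of CTCF and RAD21. Each member had a YY1 peak of its own as nearest partner, and these 1182 partners were 9.22% of the 12816 YY1 peaks. Because overlap with YY1, CTCF and RAD21 chose the sites, these shares describe the class and test nothing.

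The cells were mouse G1E-ER4 erythroblasts, a line that lacks endogenous GATA1 and carries GATA1 fused to the ligand-binding domain of the estrogen receptor. Whether the hormone was added is not given in the sources used here. Chromatin was profiled by ChIP-seq (chromatin immunoprecipitation and sequencing) in an LDB1-AID and an SMC3-AID subline, in which an auxin-inducible degron marks the named protein for destruction once auxin is added. The groups used were untreated LDB1-AID cells (LDB1, YY1, CTCF and RAD21 ChIP, 2 replicates each), LDB1-AID cells after 4 h of auxin (LDB1, 2 replicates), and untreated and 4 h auxin-treated SMC3-AID cells (LDB1 and RAD21, 3 replicates each). Whether a subline is 1 clone is not given in the sources used here.

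Each deposited set merges its replicates into 1 list of 400 bp intervals with no height, so read depth is unknown and no replicate error can be given. Intervals and Fisher tests below treat peaks as the counted units and cover counting error only, since peaks are not replicate samples. The lists held between 24 and 54223 peaks on the main chromosomes. The lists that check the degrons shrank with auxin, LDB1 from 10729 to 1043 peaks in LDB1-AID cells and the cohesin subunit RAD21 from 15223 to 24 in SMC3-AID cells. LDB1 itself had 8585 and 7237 peaks in SMC3-AID cells before and after auxin. Coordinates are mm9, the build named in the submitters' processing notes. No gene is assigned and no sequence is printed, because no genome or annotation of that build was used here.

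LDB1 does not bind DNA itself. In red cell precursors it is held on chromatin by the GATA1 and TAL1 complex through LMO2, and its self-association domain brings enhancers and promoters together. YY1 is a zinc finger protein that binds promoters and enhancers directly and has also been linked to looping, whereas CTCF and the cohesin ring, of which RAD21 and SMC3 are subunits, form the architectural loops of most cell types. The sites described here thus pair a cofactor of the erythroid complex with a widely expressed DNA-binding factor and no called architectural protein.

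How closely the partner peaks sat was measured between interval centres. The median distance from LDB1 to YY1 was 118 bp (quartiles 55 and 208 bp), and at 6 sites the centres coincided. In 278 of 1182 sites (23.5%, Wilson interval 21.2 to 26) the centres lay within 50 bp. Over all 2190 LDB1 peaks with YY1 the share was 23.4%. At the 791 LDB1 peaks that carried RAD21 as well as YY1 but no CTCF, the median was 120 bp and the share within 50 bp was 23.9% (21.1 to 27). The odds ratio between both classes was 0.98 (95% interval 0.793 to 1.21), so a difference in the spacing of LDB1 and YY1 was not detectable. Both classes were chosen for overlap with YY1, which kept every distance below 400 bp. The comparison covers spacing within that limit only. Beyond 50 bp the share of sites dropped with each further 50 bp step, to 19.7%, 16.7%, 13.7% and 9.98% at 200 to 250 bp. It was then 6.26%, 4.82% and, at 350 to 400 bp, 5.33%.

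**Figure D1:**
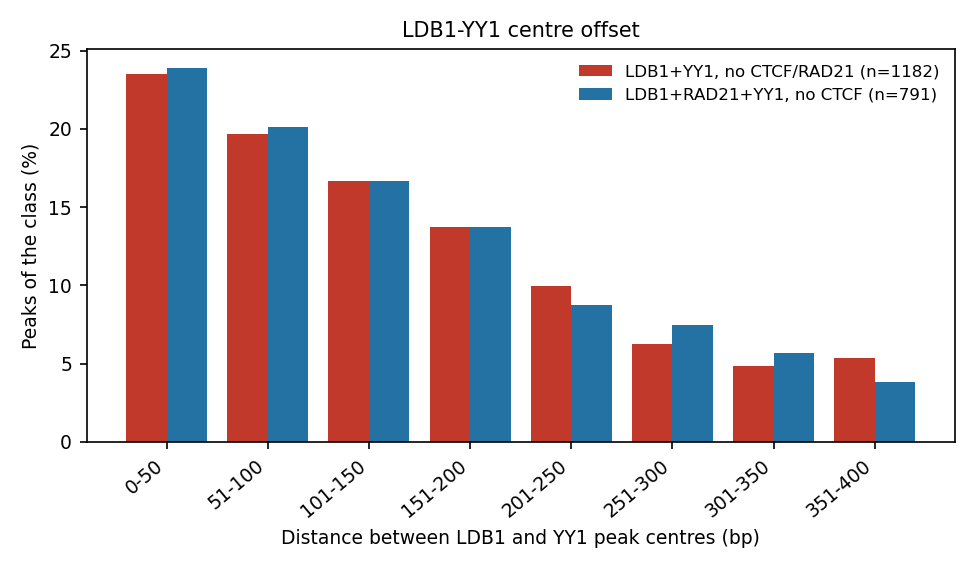
Distance between LDB1 and YY1 peak centres in 50 bp steps (x axis, bp) as a share of each class (y axis, percent), for the 1182 sites without CTCF or RAD21 (red) and the 791 sites with RAD21 (blue). Both classes are highest at 0 to 50 bp (23.5% and 23.9%) and have medians of 118 and 120 bp.

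The edge of the rule was thin. The smallest overlap with YY1 was 4 bp, 870 members shared at least 200 bp with it, and 18 members shared 20 bp or less. Of these 18, 1 was kept after LDB1 degradation and 14 were found in untreated SMC3-AID cells. Another 21 LDB1 peaks free of CTCF and RAD21 missed a YY1 peak by a gap under 20 bp, and 1 and 13 of them did the same. On the other side, 8 members missed a RAD21 peak and 5 missed a CTCF peak by under 20 bp. The YY1 partner itself touched a RAD21 peak at 34 sites and a CTCF peak at 19, with 45 sites touched by either. The same shares over all YY1 peaks were not computed. A wider margin of 1 kb free of CTCF and RAD21 peaks left 929 of the 1182 members.

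The LDB1 set after LDB1 degradation shows at which sites a peak was still called. Of the 1182 sites, 116 still overlapped an LDB1 peak after auxin, which was 9.81% (8.25 to 11.6), against 7.77% of all LDB1 peaks. LDB1 peaks with none of the other proteins were kept in 203 of 6593 cases, or 3.08% (2.69 to 3.52). Sites with YY1 were therefore kept more often than sites with LDB1 alone (odds ratio 3.43, 2.7 to 4.34; Fisher's exact test, two-sided, adjusted p = 9.13e-21). They were kept less often than sites with RAD21 and YY1, at 229 of 791 or 29% (odds ratio 0.267, 0.209 to 0.341; Fisher's exact test, adjusted p = 1.4e-26). The sites with RAD21 but no YY1 or CTCF lay between, at 14.9% (13.1 to 16.9), and LDB1 sites on CTCF were kept in 10.3% (8.4 to 12.6).

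Adding YY1 went with a higher share kept on both backgrounds. The odds ratio for YY1 was 3.43 where RAD21 was absent and 2.33 (1.88 to 2.88) where it was present. A comparison of both odds ratios, chosen after the data were seen, gave a Breslow-Day p of 0.0173 and an adjusted p of 0.052 over 3 such comparisons, so a difference was not established. The ratio of the odds ratios was 1.47. It was 1.75 and past the threshold when a gap of 1 kb counted as overlap, and 1.28 and short of it among peaks also found in SMC3-AID cells.

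**Figure D2:**
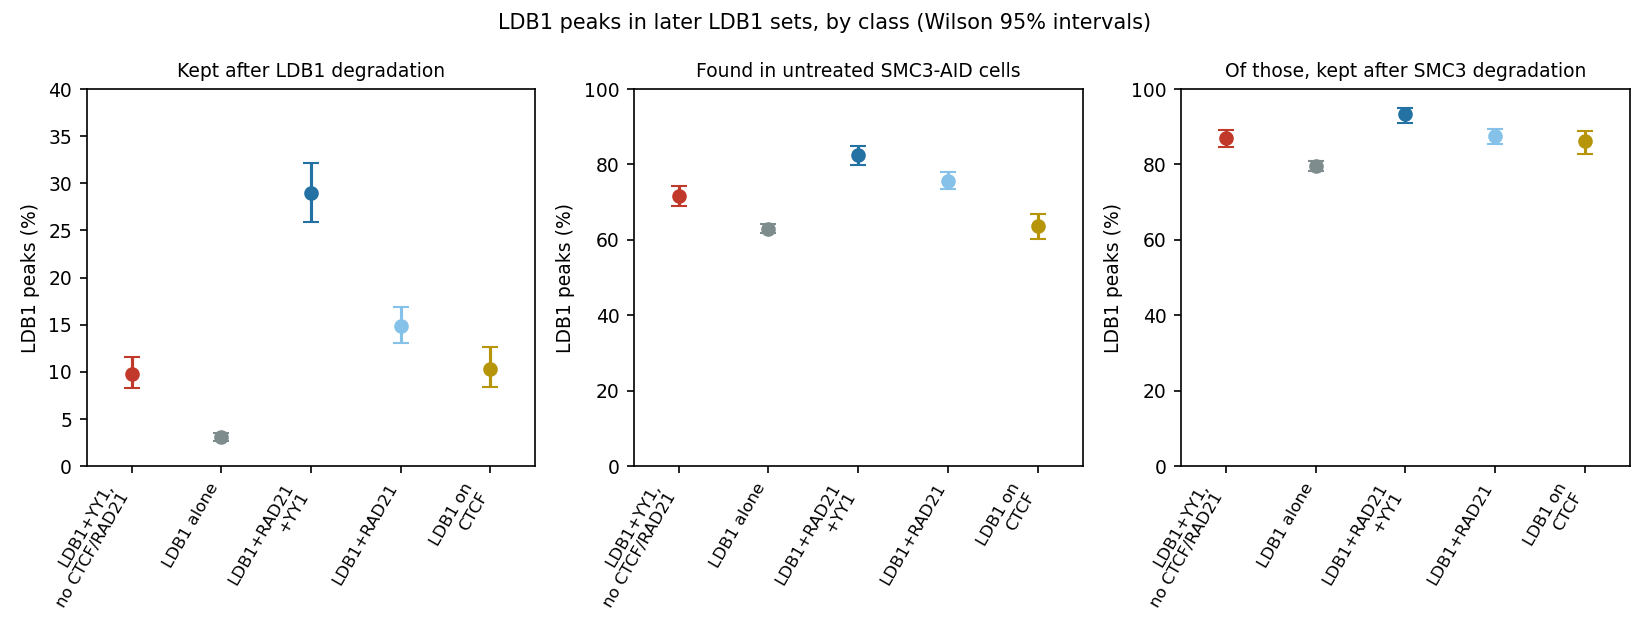
Share of LDB1 peaks (y axes, percent) kept after LDB1 degradation, found in untreated SMC3-AID cells, and, of the latter, kept after SMC3 degradation, for 5 classes of LDB1 peaks (x axes); points are shares and bars Wilson 95% intervals. Sites with YY1 but no CTCF or RAD21 (red) lie between LDB1 alone (grey) and LDB1 with RAD21 and YY1 (dark blue) in each panel: 9.81% against 3.08% and 29%, 71.7% against 62.9% and 82.6%, and 87.1% against 79.6% and 93.3%.

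Within the class, retention was higher where YY1 was nearer. Among sites with centres within 25 bp, 16.1% (11 to 23) of 143 were kept. The share was 14.1% at 25 to 50 bp, 9.87% at 50 to 100 bp, 8.08% at 100 to 200 bp and 7.05% (4.7 to 10.4) beyond 200 bp. Split at 50 bp, 42 of 278 near sites and 74 of 904 farther sites were kept, which was 15.1% and 8.19% (odds ratio 2, 1.33 to 2.99; Fisher's exact test, adjusted p = 0.00143). The 50 bp division for this comparison was picked with the values known. Among members also found in untreated SMC3-AID cells the odds ratio was 1.45 (0.899 to 2.35; Fisher's exact test, adjusted p = 0.197), so the call was lost there.

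Retention at peaks just outside the rule was close to that at its edge. At the 357 LDB1 peaks free of CTCF and RAD21 whose YY1 centre lay 400 to 1000 bp away, 8.12% (5.72 to 11.4) were kept, beside 7.05% of the outermost members. With YY1 at 1 to 5 kb the share was 2.3% (1.55 to 3.39) of 1045 peaks, and beyond 25 kb it was 3.13% (2.56 to 3.83) of 2935.

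**Figure D3:**
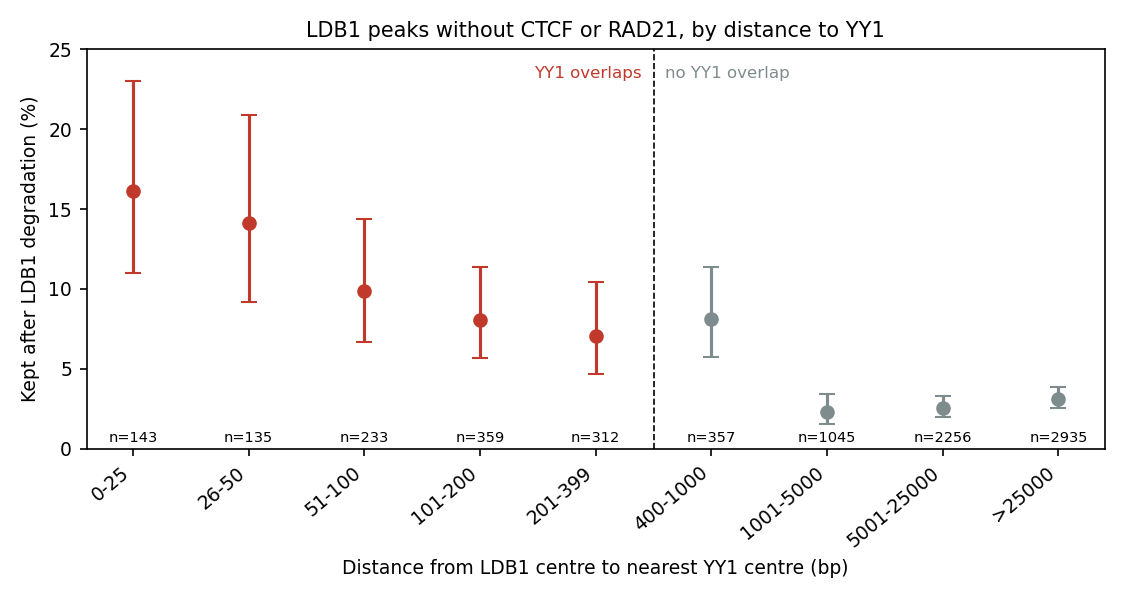
Share of LDB1 peaks without CTCF or RAD21 that were kept after LDB1 degradation (y axis, percent, with Wilson 95% intervals) by distance to the nearest YY1 centre (x axis, bp); red points overlap YY1 and are the sites described, grey points do not. The share falls from 16.1% within 25 bp to 7.05% at the outermost members, is 8.12% at 400 to 1000 bp, and is between 2.3% and 3.13% farther out.

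Where a kept site lay relative to cohesin was also described. Of the 156 members more than 25 kb from a RAD21 centre, 25 were kept (16%, 11.1 to 22.6), against 91 of 1026 nearer ones (8.87%). The odds ratio was 1.96 (1.21 to 3.17; Fisher's exact test, adjusted p = 0.00992), a split made after the data were seen. It too was lost among members found in SMC3-AID cells (1.58, 0.881 to 2.83; Fisher's exact test, adjusted p = 0.191). The shares did not run in 1 direction, since 13% (7.88 to 20.6) of the 108 members within 1 kb of RAD21 were kept.

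The 116 kept sites fell into a larger and a smaller part. In the larger, 92 sites were found in untreated SMC3-AID cells as well. The other 24 were not, and 23 of these were missing after auxin too. Such a split was not particular to the members. Of the 203 kept peaks of LDB1 alone, 33 were in neither SMC3-AID set. Of the 229 kept with RAD21 and YY1, 15 were in neither. The 24 lay at a median of 44 bp from YY1 and 52.2 kb from the next LDB1 peak, and 33.3% had another LDB1 peak within 25 kb. For the 92 the medians were 99 bp and 14 kb, and 65.2% had a neighbour. The 24 thus sat closer to YY1 and farther from other LDB1 peaks than the 92, as a description of groups formed from the peak sets. Over the whole class, kept sites were found in SMC3-AID cells in 79.3% of cases and lost sites in 70.9%, a difference that missed the threshold (odds ratio 1.57, 0.984 to 2.51; Fisher's exact test, adjusted p = 0.0689).

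At the kept sites the LDB1 interval moved little. The median shift of its centre between the untreated and the auxin set was 34 bp, against 26 bp between the untreated sets of both sublines. After LDB1 degradation the centre lay nearer to YY1 than before at 58 sites, farther at 54 and equally far at 4, so no move towards YY1 was seen.

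The SMC3-AID cells gave a second look at the same sites in another subline. Of the 1182 sites, 848 overlapped an LDB1 peak of untreated SMC3-AID cells, or 71.7% (69.1 to 74.2), against 67% of all LDB1 peaks. For LDB1 alone the share was 62.9% (odds ratio 1.5, 1.31 to 1.71; Fisher's exact test, adjusted p = 1.67e-08). For LDB1 with RAD21 and YY1 it was 82.6% (odds ratio 0.537, 0.429 to 0.671; Fisher's exact test, adjusted p = 7.11e-08). Sites with RAD21 but no YY1 or CTCF stood at 75.7% (73.4 to 77.9), and LDB1 sites on CTCF at 63.6% (60.2 to 66.9).

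Most of them still carried an LDB1 peak after SMC3 degradation. Of the 848 sites, 739 were kept after SMC3 degradation, which was 87.1% (84.7 to 89.2), against 83.3% of all LDB1 peaks found in untreated SMC3-AID cells. LDB1 alone was kept in 79.6% (odds ratio 1.74, 1.41 to 2.16; Fisher's exact test, adjusted p = 2.54e-07) and LDB1 with RAD21 and YY1 in 93.3% (odds ratio 0.49, 0.34 to 0.706; Fisher's exact test, adjusted p = 0.000143). Shares near that of the members were also seen without a YY1 requirement. They were 87.6% (85.4 to 89.4) with RAD21 but no YY1 or CTCF, and 86.1% (82.9 to 88.9) on CTCF. Among the 334 members absent from untreated SMC3-AID cells, 35 (10.5%, 7.63 to 14.2) were called after auxin. Over all LDB1 peaks the share was 333 of 3537, or 9.41% (8.5 to 10.4), so the members were near it.

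Among these 848 sites, retention after SMC3 degradation showed no order by distance to YY1. The 50 bp call for retention after LDB1 degradation was lost among the same 848 (odds ratio 1.45), and the difference between both treatments was not tested. Sites within 25 bp of YY1 were kept after SMC3 degradation in 86% (77.9 to 91.5) of 100 cases, those at 100 to 200 bp in 87.8% of 255 and those beyond 200 bp in 85.2% (79.9 to 89.3) of 223. Presence in untreated SMC3-AID cells was between 69.9% and 75.1% in every step.

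Read across the 3 later LDB1 sets, the commonest history of a site was presence in both SMC3-AID sets with loss after LDB1 degradation, at 651 sites (55.1%). A further 276 sites (23.4%) appeared in none of the 3 sets, 105 (8.88%) in untreated SMC3-AID cells only, and 34 (2.88%) in auxin-treated SMC3-AID cells only. All 3 sets held 88 sites (7.45%). The commonest history was the same for LDB1 alone (47.7%) and for LDB1 with RAD21 and YY1 (50.7%), so it was not particular to these sites. Presence in untreated SMC3-AID cells only stood at 12.7% and 5.06%, and in auxin-treated SMC3-AID cells only at 3.34% and 1.77%. For LDB1 alone the shares in all 3 and in none were 2.4% and 33.2%, and for LDB1 with RAD21 and YY1 they were 26.3% and 13.5%.

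**Figure D4:**
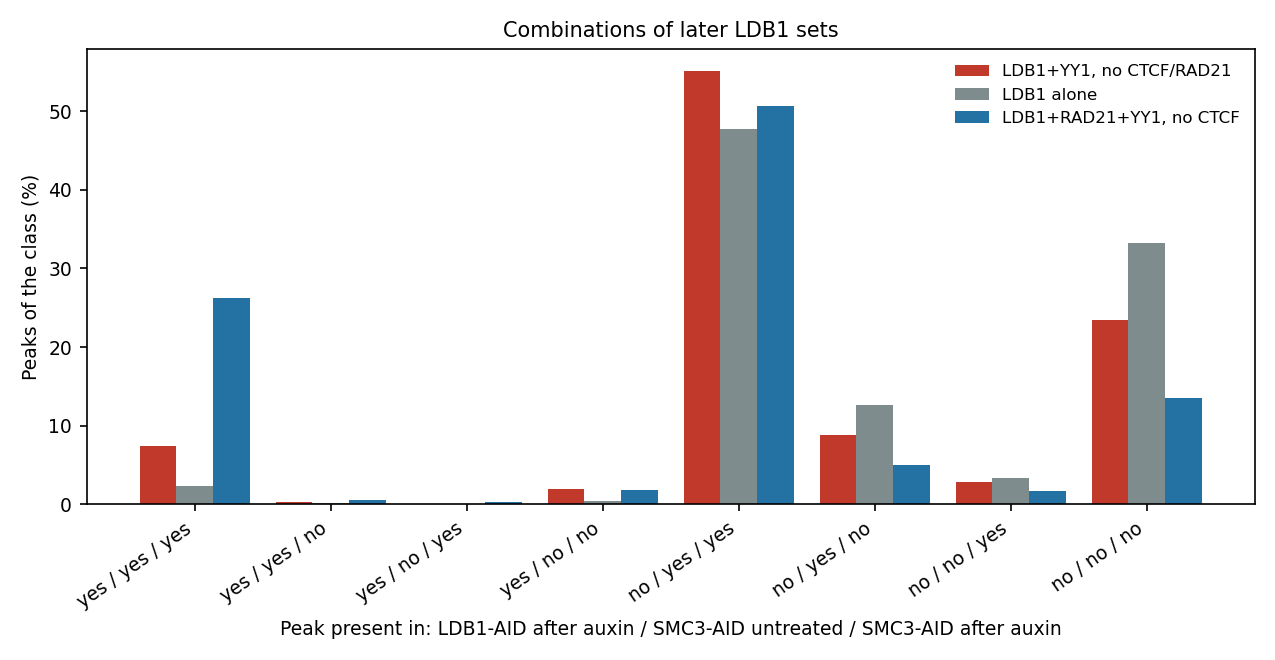
Share of each class of LDB1 peaks (y axis, percent) by presence in LDB1-AID cells after auxin, in untreated SMC3-AID cells and in SMC3-AID cells after auxin (x axis, in that order). Sites with YY1 but no CTCF or RAD21 (red) were in all 3 sets in 7.45% of cases and in none in 23.4%, between LDB1 alone (grey, 2.4% and 33.2%) and LDB1 with RAD21 and YY1 (blue, 26.3% and 13.5%).

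Whether the sites also lacked cohesin in the other subline was read from its RAD21 set. In untreated SMC3-AID cells 15 of 1182 sites carried RAD21 (1.27%, 0.771 to 2.08), against 4.7% of all LDB1 peaks. The share was 0.41% for LDB1 alone (odds ratio 3.13, 1.66 to 5.89; Fisher's exact test, adjusted p = 0.00112) and 15% for the class with RAD21 and YY1 (odds ratio 0.0726, 0.0421 to 0.125; Fisher's exact test, adjusted p = 1.01e-32). The rule chose the members for lacking RAD21 in LDB1-AID cells and that class for carrying it. The difference between them therefore reflects the selection and is no independent result. All LDB1 peaks also include classes chosen for RAD21. Restricted to LDB1 peaks found in both sublines, the difference from LDB1 alone was no longer called (odds ratio 2.17, 1.06 to 4.42; Fisher's exact test, adjusted p = 0.0668). This RAD21 set is smaller, with 15223 peaks against 33160, and whether its depth set these shares was not tested.

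After SMC3 degradation 2 sites overlapped a residual RAD21 peak, chr9:3020183-3020582 and chr9:3024111-3024510. Both were in all 3 later LDB1 sets, their YY1 centres lay 0 and 8 bp away, and they were the 2 members on chromosome 9 below 3.1 Mb. They also overlapped the RAD21 set of untreated SMC3-AID cells, and so were 2 of the 15 members with RAD21 there. No other class of LDB1 peak had a residual RAD21 peak. That short stretch held 11 of the 24 residual RAD21 peaks and 18 LDB1 peaks of untreated SMC3-AID cells, but none of the CTCF or RAD21 peaks of LDB1-AID cells. Such a pile-up of peaks sets the pair apart from the other members, and whether it arises from signal common to any ChIP was not tested. Without that stretch 1180 members remained and the odds ratio of retention after LDB1 degradation against LDB1 alone was 3.37, and that of RAD21 in untreated SMC3-AID cells was 2.71 (1.39 to 5.27).

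The surroundings of the sites more often held CTCF, RAD21 and other LDB1 peaks than those of LDB1 alone. The rule removed only direct overlap, and did so in both classes. The CTCF and RAD21 distances come from the same lists that the rule used. Those comparisons therefore describe the classes and are no independent result. A CTCF centre lay within 10 kb of 784 sites (66.3%, 63.6 to 69), against 60.4% of all LDB1 peaks free of CTCF and RAD21 and 59.4% for LDB1 alone (odds ratio 1.35, 1.18 to 1.54; Fisher's exact test, adjusted p = 1.07e-05). RAD21 lay within 10 kb of 691 sites (58.5%, 55.6 to 61.2), against 51.3% of the peaks free of both and 50% for LDB1 alone (odds ratio 1.41, 1.24 to 1.6; Fisher's exact test, adjusted p = 1.72e-07). Median distances were 5.95 kb to CTCF and 7.74 kb to RAD21, and for LDB1 alone 7.35 and 10 kb.

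Another LDB1 peak lay within 25 kb of 760 sites (64.3%, 61.5 to 67), against 62.3% of all LDB1 peaks. LDB1 alone had such a neighbour in 57.8% (odds ratio 1.32, 1.16 to 1.5; Fisher's exact test, adjusted p = 4.15e-05), and the class with RAD21 and YY1 in 76.1% (odds ratio 0.565, 0.462 to 0.692; Fisher's exact test, adjusted p = 7.11e-08). Within 100 kb the difference from LDB1 alone was lost (87.2% against 85.7%). The nearest neighbour of these 760 sites was LDB1 alone at 415 and another member at 113 (14.9%), whereas members were the nearest neighbour of 11.3% of all LDB1 peaks that had one.

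**Figure D5:**
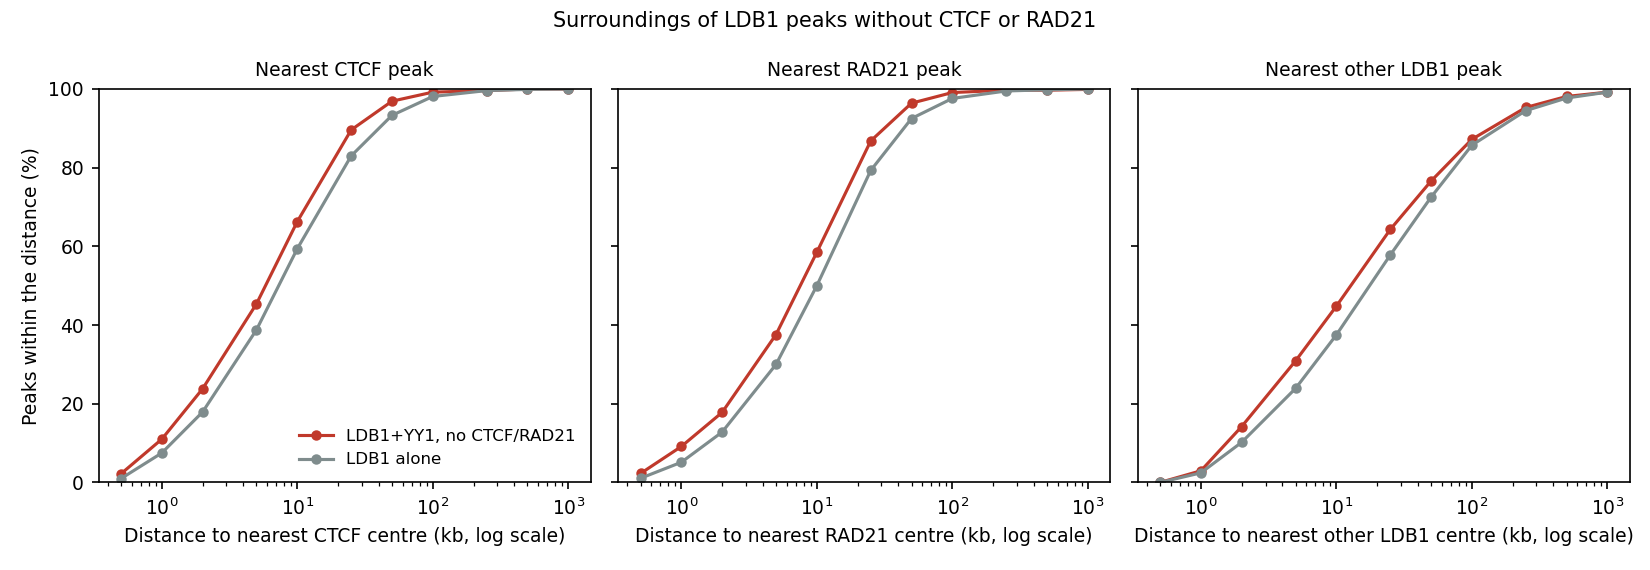
Cumulative share of sites (y axes, percent) with the nearest CTCF, RAD21 or other LDB1 centre within a given distance (x axes, kb, log scale), for LDB1 with YY1 but no CTCF or RAD21 (red) and LDB1 alone (grey). Within 10 kb the red points stand at 66.3%, 58.5% and 44.8% and the grey points at 59.4%, 50% and 37.5%.

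Most members had no other member in their group. Joining members with gaps of at most 25 kb gave 1084 groups, of which 998 held 1 member, 74 held 2 and 12 held 3. Groups with another member held 184 sites (15.6%). Members were 11% of LDB1 peaks, and the grouping of an equally sparse set was not computed. Dense LDB1 stretches, with 5 or more LDB1 peaks chained in this way, contained 151 members (12.8%), against 13.6% of all LDB1 peaks. The YY1 partners had another YY1 peak within 25 kb in 65.9% of cases, against 62.1% of all YY1 peaks.

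Among the 12 groups of 3 members, the 3 named by rule were first by the number of LDB1 peaks, with ties broken by chromosome and start. The last 2 of them, with 4 LDB1 peaks each, tied with other groups. The first, chr5:20437166-20466569, spanned 29.4 kb with 5 LDB1, 5 YY1, 5 CTCF and 3 RAD21 peaks. Its 3 members had YY1 at 75, 70 and 125 bp and all were found in SMC3-AID cells before and after auxin. The second, chr4:109065867-109087414, had YY1 at 105, 76 and 34 bp, with 2 members found in SMC3-AID cells before auxin and 1 after it. The third, chr4:130458214-130467002, spanned 8.79 kb and contained no CTCF and no RAD21 peak. Its YY1 centres lay 159, 303 and 104 bp away, and 1 member was found in each SMC3-AID set. None of the 9 members was kept after LDB1 degradation, a count too small to tell from the 9.81% kept in the whole class.

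Of the 88 sites present in all 3 later LDB1 sets, the 5 with the smallest distance to YY1 were named by rule. Besides the pair at the start of chromosome 9 they were chr2:153433955-153434354 (3 bp), chr12:45298927-45299326 (8 bp) and chr16:91545735-91546134 (9 bp). The chr2 site had CTCF at 1.31 kb, RAD21 at 1.44 kb and another LDB1 peak at 2.62 kb. The chr12 site stood alone, with the next LDB1 peak 1.63 Mb away, and the chr16 site had one at 8.38 kb. The member farthest from any other LDB1 peak was chr1:102076625-102077024, at 2.44 Mb. Its YY1 centre coincided with the LDB1 centre, and it was kept after LDB1 degradation but was absent from both SMC3-AID sets.

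All 20 chromosomes examined held members. On autosomes they were between 8.23% (32 of 389 on chromosome 16) and 14.4% (88 of 609 on chromosome 7) of the LDB1 peaks, and on X they were 5.64% (11 of 195, 3.18 to 9.82). On X, 0 of 11 members were kept after LDB1 degradation, a count too small to tell from the 5.64% of all LDB1 peaks kept there (Wilson upper bound 25.9%). On autosomes the lowest share of members kept was 4.55% (4 of 88, 1.78 to 11.1) on chromosome 7, where 7.72% of all LDB1 peaks were kept. The highest was 21.9% (7 of 32, 11 to 38.8) on chromosome 14, where 8.43% were. Both are extremes picked from 19 autosomes and rest on few kept sites, and a difference between chromosomes was not tested.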

How the data were processed

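The authors deposited consensus peak lists, 1 for each of 9 groups, whose values are positions (start and end in bp). A sample's description label names its list. Per the submitters' processing notes, Bowtie2, MACS2 2.2.9.1, deepTools 3.5.1 and build mm9 were used. The calling threshold and the consensus rule are not given in the sources used here. The lists cover 22 of 65 samples. The other 43 were not analysed here.

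Overlaps were computed in Python 3.11.15 with pandas 2.3.3, checked against bedtools 2.31.1 and tested on simulated data. Shares have Wilson 95% intervals. The classes' shares were set against each other with two-sided Fisher's exact tests (scipy 1.17.1) and Benjamini-Hochberg adjustment over 16 tests and a threshold of 0.05. Odds ratios were compared by the Breslow-Day test (statsmodels 0.14.6). The members, comparison classes and tests were chosen with earlier results of these data known. Positions were named by rule: the first 3 groups by members, then LDB1 peaks, then position, the 5 members nearest to YY1 among those in all 3 later LDB1 sets, and the most isolated member. The chromosome 9 pair was also singled out after its values were seen. Transcript start and motif comparisons were not run, since the gene and promoter tables at hand are of another assembly.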

Additional observations from a re-analysis of the deposited data

How the results depend on the processing

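Each of 20 results was recomputed under the alternatives, and 126 of the 137 values obtained lay on the main value's side of the threshold with its direction or, for the number of members, within 1.5 times of it. The number of members ranged from 848, with only LDB1 peaks found in both sublines, to 1270, with a gap of 1 kb allowed. The odds ratio of retention after LDB1 degradation stayed between 2.88 and 3.81 against LDB1 alone, and between 0.253 and 0.321 against LDB1 with RAD21 and YY1. After SMC3 degradation the ranges were 1.53 to 2.01 and 0.483 to 0.58.

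Among peaks also found in untreated SMC3-AID cells, 3 calls were lost: RAD21 in SMC3-AID cells against LDB1 alone (2.17), YY1 within 50 bp (1.45) and RAD21 beyond 25 kb (1.58), the last 2 chosen after the data were seen. The call for LDB1 neighbours against LDB1 alone was lost at 100 kb (1.14). The ratio of the YY1 odds ratios for retention after LDB1 degradation, 1.47, passed the threshold with 50% overlap of both peaks (1.61), a gap of 1 kb (1.75) and autosomes only (1.5). For the SMC3-AID results, whose ratios of 0.987 and 0.886 were not called, the ratio changed sides of 1 to 1.01 and 1.09 with 50% overlap and to 1.21 and 1.03 with a gap of 1 kb. The cause was not tested. Retention after SMC3 degradation was not recomputed on peaks found in both sublines, since it already uses only those.

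No paired analysis was possible because each deposited list combines its replicates, and for the same reason leaving out a replicate gave no value. Depth and peak height are unknown, so a site missing from a set was not called there, which differs from not being bound. Whether peak strength differs between the classes was not tested.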

Other observations

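The LDB1 set after LDB1 degradation held peaks that were not in the untreated set. Of its 1043 peaks, 207 (19.8%) had no untreated LDB1 peak of the same cells, and 57 of these (27.5%, Wilson 95% interval 21.9 to 34) lay on a YY1 peak without CTCF or RAD21. A further 83 (40.1%, 33.7 to 46.9) lay on a CTCF or RAD21 peak. In untreated SMC3-AID cells, 1366 LDB1 peaks (15.9%) had no counterpart in untreated LDB1-AID cells, and 43 of them (3.15%, 2.35 to 4.21) were on YY1 without CTCF or RAD21 and 72 (5.27%, 4.21 to 6.59) on CTCF or RAD21. In auxin-treated SMC3-AID cells these numbers were 894 (12.4%), 25 (2.8%, 1.9 to 4.1) and 48 (5.37%, 4.07 to 7.05). Both shares were thus higher in the LDB1 set after LDB1 degradation than in the SMC3-AID sets. The YY1, CTCF and RAD21 peaks all came from LDB1-AID cells, so SMC3-AID peaks were scored against another subline. The shares are therefore not measured alike, and whether the subline set the difference was not tested. Of all 10729 untreated LDB1 peaks of LDB1-AID cells, 11% met the rule and 7775 were free of CTCF and RAD21. The comparison was made after the data were seen.

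Of 12 LDB1 peaks outside the main chromosomes, 1 met the same rule of YY1 without CTCF or RAD21.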
